A study of Mus musculus with 10 samples.

Results

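The brain endothelial and barrier genes described here are 34 genes of endothelial identity, cell junctions and transport across the blood-brain barrier, listed by name, with no threshold on their values, when earlier results of these data were already known. All 34 of them were found among the 15914 protein-coding genes of the deposited table, and all 34 passed the minimum of 0.1 FPKM in 5 libraries that a gene needed to be tested. Bulk RNA sequencing was done on the prefrontal cortex of C57BL/6J mice, all wild type. The hypoxia group had 5 libraries, from animals exposed to hypobaric hypoxia, that is at reduced air pressure and so with little oxygen. The hypoxia + PBM group had 5 more, from animals treated with light after such exposure (photobiomodulation, with a laser according to the label). Exposure to hypobaric hypoxia is thus shared by both groups, no animals kept at normal pressure were analysed here, and the labels give no age, duration or light dose. FPKM is a fragment count scaled to the length of the transcript and to the size of the library. The values rested on 29283937 to 35957148 reads per library. Nothing in the labels ties each library to an animal of its own, so that p-values may reflect technical spread only.

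The endothelium of brain vessels forms a barrier because tight junctions, with claudin-5 as the main sealing strand protein, close the path between cells, while vesicle traffic through the cells is kept low. What crosses is chosen by transporters: efflux pumps return drugs and lipophilic compounds to the blood, and carriers bring in amino acids, thyroid hormone, lipids and iron. Transcription factors of the ETS, SOX and KLF families keep the endothelial state, and Wnt signalling through beta-catenin and LEF/TCF factors keeps the barrier in particular. Of the cortical markers, the vesicular glutamate transporter Slc17a7 was at 473 to 528 FPKM in hypoxia and 481 to 516 FPKM in hypoxia + PBM. Markers of striatal neurons were also present in each library, although the label names prefrontal cortex. Their summed level was 420 to 761 FPKM in hypoxia and lower, 213 to 383 FPKM, in hypoxia + PBM. Whether other tissue was included was not tested. In bulk RNA, fewer endothelial cells and less of a transcript per cell cannot be told apart.

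The tight-junction gene Cldn5 and the surface protein gene Ly6c1 were higher in hypoxia + PBM, and no member was called lower. Cldn5 went from 11.3 ± 1.28 to 14.9 ± 1.36 FPKM and Ly6c1 from 11.9 ± 1.497 to 15.9 ± 1.54 FPKM (SD, n = 5 each), which are ratios of means of 1.32 and 1.33. The test was limma-trend on log2(FPKM + 1) over all 14406 tested genes, and "called" means an adjusted p (Benjamini-Hochberg) under 0.05. By this rule 2 of 34 members were called, both higher, beside 2.85% of all tested genes in either direction, 1.15% higher and 1.7% lower. Non-overlapping libraries were seen for the same 2 members, both higher (2.67% of all tested genes), and for 0 members in the lower direction (2.87% of all tested genes). At an unadjusted p under 0.05, 9 members were higher (9.46% of all tested genes) and 1 was lower (10.1% of all tested genes). Of the 34, 24 had a positive log2 change, against 7207 of the 14406 tested genes, and the members' median was 0.073 against 0.00011 over all tested genes. The members' log2 changes ran from -0.17 for Fli1 to 0.39 for Ly6c1. In the authors' deposited table, 4 members had a q-value under 0.05 (Cldn5, Ly6c1, Ly6a and Cd34), all higher, where 6.4% of all genes did. With the mean of the striatal neuron markers as a covariate, which itself separated the groups without overlap, limma called no member and no other gene (889 genes at an unadjusted p under 0.05).

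**Figure D1:**
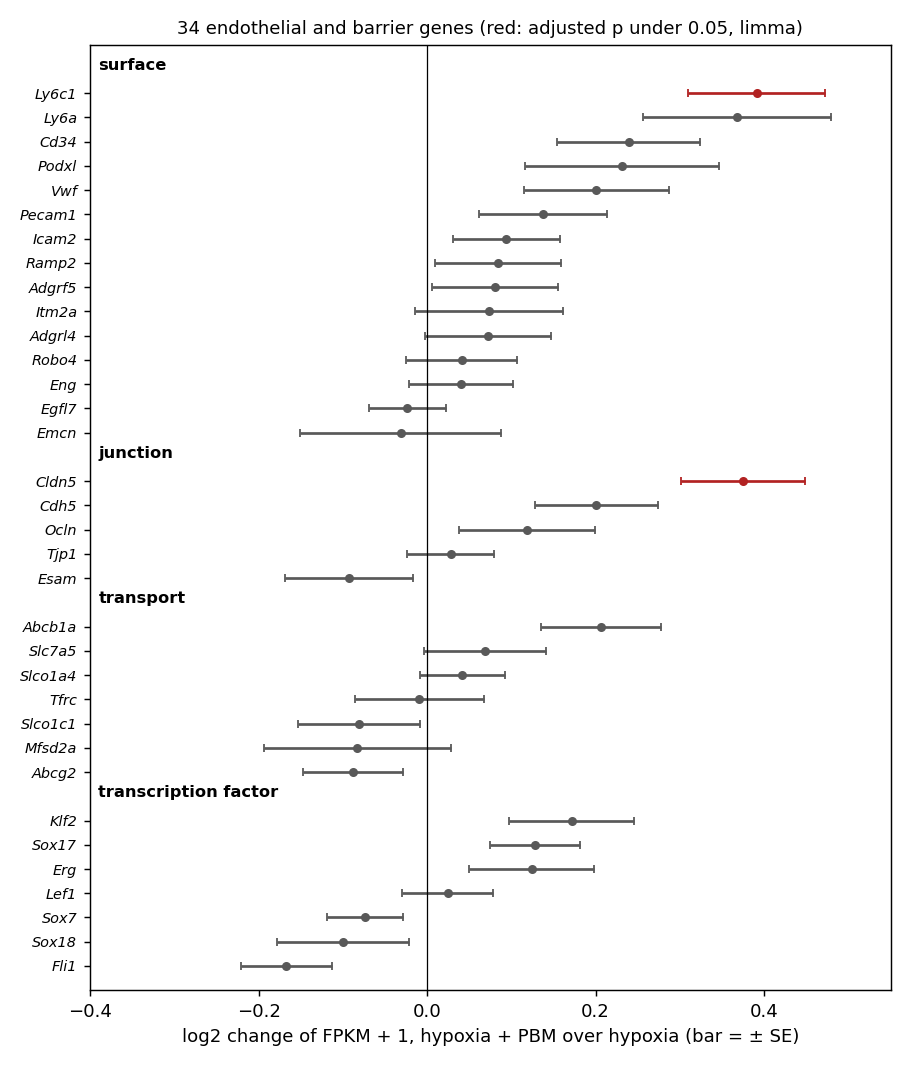
Log2 change of FPKM + 1 in hypoxia + PBM over hypoxia for the 34 genes, sorted within 4 roles, with bars of ± 1 standard error. Ly6c1 (0.39) and Cldn5 (0.37), in red, are the 2 called genes, and transport genes lie on both sides of 0.

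Junction genes were led by Cldn5, which encodes claudin-5. Its level was 9.997, 10.2, 13.1, 11.3 and 11.8 FPKM in hypoxia replicates 1 to 5 and 13.4, 14.7, 16.9, 14.1 and 15.3 FPKM in hypoxia + PBM replicates 1 to 5. The groups did not overlap, but the gap between hypoxia replicate 3 and hypoxia + PBM replicate 1 was small. The log2 change was 0.37 ± 0.074 (SE), with an adjusted p by limma of 0.0185. Each library held 418 to 829 reads of the gene. In the 10 fits that left out 1 library Cldn5 kept its call, with log2 changes from 0.33 to 0.43 and a highest limma adjusted p of 0.0486 (without hypoxia replicate 1). The replicate number as a block left the call in place (adjusted p by limma 0.0116).

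Cdh5, the cadherin of endothelial adherens junctions, stood at 2.07, 1.41, 1.79, 1.99 and 2.07 FPKM in hypoxia and at 2.29, 2.34, 2.48, 2.41 and 1.92 FPKM in hypoxia + PBM. Only hypoxia + PBM replicate 5 lay within the range of the hypoxia libraries. The log2 change was 0.20 ± 0.073 (SE), which missed the threshold (adjusted p by limma 0.152). The other junction members did not pass either. Ocln, a second transmembrane protein of tight junctions, had a log2 change of 0.12 and Tjp1, the scaffold ZO-1 beneath them, one of 0.028. Esam, an adhesion molecule of endothelial contacts, had one of -0.092 ± 0.076 (SE).

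The sequence before the start of Cldn5 is shown with those of the other called member, Ly6c1, and of Abcb1a, the transport gene with the smallest p. Each line holds the 250 bases before the first start listed by RefSeq on GRCm38.p6, which is not the build of the reads (GRCm39). Capitals mark 6-letter stretches, on either strand, that match ETS (AGGAAG), SOX (ACAATG), TCF/LEF (CTTTGA) or KLF (CCACCC) factors.
Cldn5, chr16:18776597-18776846, plus strand: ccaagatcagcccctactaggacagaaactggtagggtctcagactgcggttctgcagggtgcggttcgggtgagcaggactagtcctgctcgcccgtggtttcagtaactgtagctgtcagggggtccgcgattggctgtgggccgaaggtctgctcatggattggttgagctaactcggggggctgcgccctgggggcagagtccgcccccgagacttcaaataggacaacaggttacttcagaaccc
Ly6c1, chr15:75048838-75049087, minus strand: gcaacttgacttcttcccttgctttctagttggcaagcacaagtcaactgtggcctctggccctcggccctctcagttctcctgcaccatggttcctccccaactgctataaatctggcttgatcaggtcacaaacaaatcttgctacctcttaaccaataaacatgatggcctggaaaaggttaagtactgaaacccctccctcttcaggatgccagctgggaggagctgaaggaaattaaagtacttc
Abcb1a, chr5:8566841-8567090, plus strand: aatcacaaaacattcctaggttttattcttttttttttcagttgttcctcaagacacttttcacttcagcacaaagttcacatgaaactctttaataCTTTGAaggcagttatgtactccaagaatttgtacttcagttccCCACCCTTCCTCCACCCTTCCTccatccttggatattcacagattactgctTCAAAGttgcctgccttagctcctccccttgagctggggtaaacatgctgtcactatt
The windows of Cldn5 and Ly6c1 held none of the 4 letter strings, while that of Abcb1a held 6 matches, in which the KLF and ETS letters run into each other. A promoter was listed for 21 of the 34 members. The ETS letters were in 12 of these 21, against 29.2% of 27018 promoters of the same length, the KLF letters in 8 of 21 (27.7% of all), the TCF/LEF letters in 4 of 21 (14.05%) and the SOX letters in 2 of 21 (10.99%). A match of letters is not a bound site, and their absence says nothing on the factor.

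Among the 15 surface and secreted genes 13 had a positive log2 change, with a median of 0.084, and 1 was called. Ly6c1 encodes a small lipid-anchored protein of the Ly6 family that marks brain endothelium in mice and is also made by some leukocytes. It was measured at 9.81, 11.1, 12.8, 13.6 and 12.2 FPKM in hypoxia and at 18.0, 13.9, 16.6, 15.1 and 15.8 FPKM in hypoxia + PBM. No library overlapped between the groups, with hypoxia replicate 4 and hypoxia + PBM replicate 2 nearest to each other. The log2 change was 0.39 ± 0.081 (SE), with an adjusted p by limma of 0.0239. This call was less steady than that of Cldn5. It held in 7 of the 10 fits without 1 library and was lost without hypoxia replicate 2 or without hypoxia + PBM replicate 1 or 3, with a highest limma adjusted p of 0.0605. With the replicate number as a block the limma adjusted p was 0.0546.

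The value of Ly6c1 also depends on how reads were shared with its neighbour Ly6c2, a close copy on the same chromosome. The start of both coding sequences, from GENCODE M21, is shown because it holds most of the coding bases that differ. Bases outside the coding part, which also tell the transcripts apart, are not shown. Each line gives the first 90 bases, and capitals mark the 6 positions there at which the copies differ.
Ly6c1: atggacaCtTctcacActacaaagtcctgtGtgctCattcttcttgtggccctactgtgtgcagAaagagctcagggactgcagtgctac
Ly6c2: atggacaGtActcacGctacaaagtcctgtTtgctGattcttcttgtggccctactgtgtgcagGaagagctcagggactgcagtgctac
Over the 393 coding bases before the stop, 384 were identical and 9 differed. Of the 50-base words of the Ly6c1 transcript 31.7% also occurred in Ly6c2, and 5.03% in Ly6a. Ly6c2 was barely detected, with 1, 0, 1, 3 and 2 reads in hypoxia against 487 to 726 of Ly6c1, and 6, 6, 7, 6 and 7 reads in hypoxia + PBM against 737 to 1098. Its few reads were thus higher in each hypoxia + PBM library as well, a gene named after its values were seen, and how many of them are misplaced reads of Ly6c1 cannot be told from the table.

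**Figure D2:**
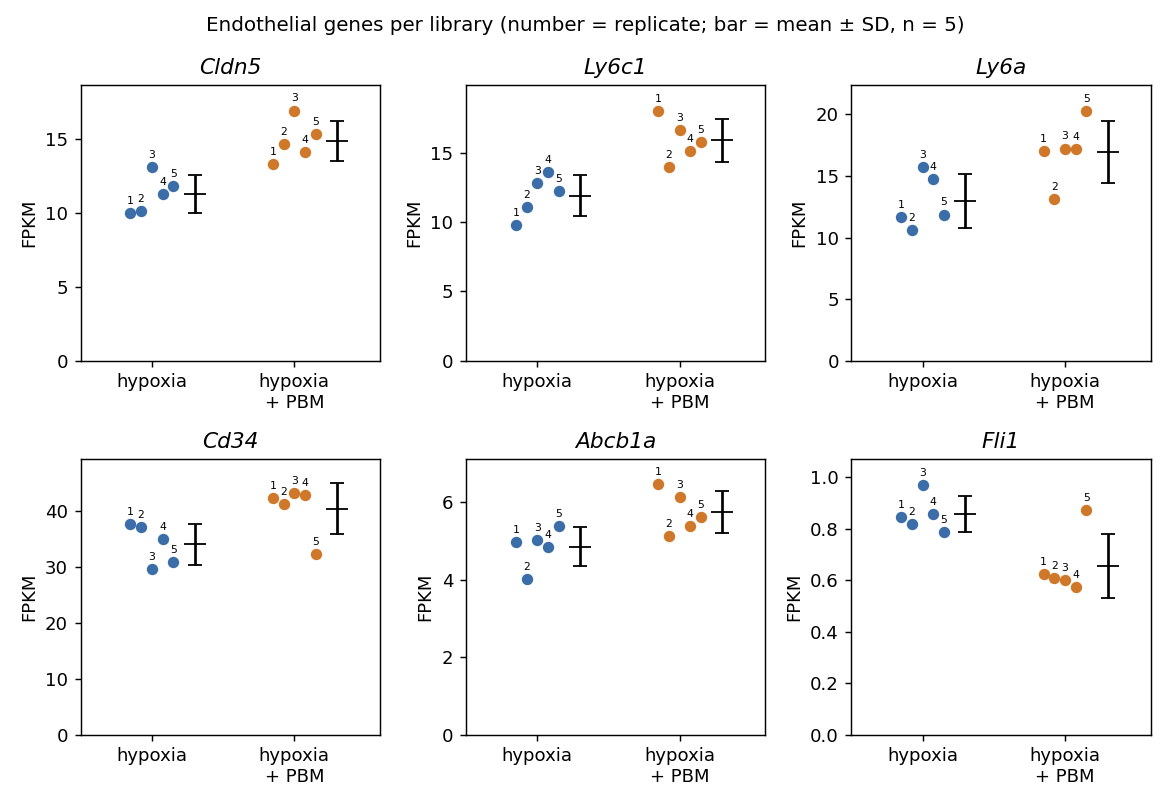
FPKM of 6 members in each library, with the replicate number above each point and the mean ± SD (n = 5) beside each group. Cldn5 and Ly6c1 separate the groups, Ly6a overlaps, and hypoxia + PBM replicate 5 sits apart in Cd34 (32.4) and Fli1 (0.874).

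Ly6a, the Ly6 family member known as the stem cell antigen Sca-1 and also made by brain endothelium, stood at 11.7, 10.6, 15.7, 14.8 and 11.9 FPKM in hypoxia. In hypoxia + PBM it stood at 17.0, 13.1, 17.2, 17.2 and 20.2 FPKM. Only hypoxia + PBM replicate 2 overlapped the hypoxia libraries. Its log2 change of 0.37 ± 0.11 (SE) was near that of Ly6c1, but it did not pass (adjusted p by limma 0.0965). Ly6a passed in 1 of the 10 fits without 1 library, that without the overlapping hypoxia + PBM replicate 2 (adjusted p by limma 0.0447). In the others its adjusted p by limma reached 0.188. Cd34, a sialomucin of endothelial and blood progenitor surfaces, was the member with the highest level. It was at 37.8, 37.1, 29.6, 35.1 and 30.8 FPKM in hypoxia and at 42.4, 41.3, 43.2, 43.0 and 32.4 FPKM in hypoxia + PBM. The first 4 libraries of hypoxia + PBM lay above each hypoxia library, while replicate 5 lay among them. The log2 change was 0.24 ± 0.085 (SE), with an adjusted p by limma of 0.142. Without hypoxia + PBM replicate 5, the library that lay apart, it was 0.32 and passed (adjusted p by limma 0.0298). That was the only 1 of the 10 fits without 1 library to call Cd34, and the highest adjusted p by limma was 0.259.

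The remaining surface and secreted genes did not pass the test. Podxl, a sialomucin of the luminal surface, and Vwf, the blood-clotting factor stored in endothelial granules, had log2 changes of 0.23 ± 0.12 and 0.20 ± 0.086 (SE). Pecam1, the general endothelial adhesion protein, stood at 3.24 ± 0.353 and 3.68 ± 0.464 FPKM (SD, n = 5 each), a log2 change of 0.14 ± 0.076 (SE), with an adjusted p by limma of 0.347. Icam2, a ligand for leukocyte integrins, had a log2 change of 0.094. The adrenomedullin co-receptor Ramp2 (0.084), the adhesion receptors Adgrf5 (0.080) and Adgrl4 (0.072), the membrane protein Itm2a (0.074), the guidance receptor Robo4 (0.041) and the TGF-beta co-receptor Eng (0.040) had log2 changes near the members' median or below it. The secreted vascular factor Egfl7 (-0.023) and the sialomucin Emcn (-0.031) were just below 0. Leaving out 1 library moved several of these uncalled values by over 1.5 times. Without hypoxia replicate 1 the log2 change was 0.14 for Podxl, 0.015 for Ramp2, 0.016 for Eng and -0.0095 for Robo4, and without hypoxia replicate 2 it was 0.0058 for Itm2a, 0.035 for Adgrf5 and 0.054 for Icam2. Without hypoxia + PBM replicate 3 that of Adgrl4 was 0.040. In the other direction, without hypoxia + PBM replicate 2 it was 0.13 for Adgrl4, 0.12 for Itm2a and 0.092 for Eng.

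Transport genes showed no shared direction: 3 of 7 had a positive log2 change, their median was -0.0093 and none was called. Abcb1a, which encodes the efflux pump P-glycoprotein, stood at 4.98, 4.02, 5.04, 4.84 and 5.40 FPKM in hypoxia and at 6.48, 5.13, 6.15, 5.40 and 5.62 FPKM in hypoxia + PBM. The groups overlapped through hypoxia replicate 5. The log2 change was 0.21 ± 0.071 (SE), with an adjusted p by limma of 0.135. Abcg2, the efflux pump BCRP, pointed the other way, with 5.78, 4.89, 5.50, 4.86 and 5.07 FPKM in hypoxia and 4.75, 5.01, 5.18, 5.08 and 4.23 FPKM in hypoxia + PBM. Its libraries were mixed between the groups, and the log2 change was -0.088 ± 0.059 (SE), with an adjusted p by limma of 0.447.

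Tfrc, the transferrin receptor that carries iron inward, had the highest level of the transport genes, with 29.3, 27.0, 21.7, 25.0 and 26.5 FPKM in hypoxia. In hypoxia + PBM it had 29.0, 22.2, 26.2, 25.8 and 25.3 FPKM. The ranges of both groups nearly coincided, and the log2 change was -0.0093 ± 0.076 (SE). Slc7a5, the large neutral amino acid carrier, stood at 18.8 ± 2.04 and 19.8 ± 1.73 FPKM (SD, n = 5 each). Slco1c1, a carrier of thyroid hormone, stood at 15.3 ± 1.36 and 14.5 ± 1.52 FPKM (SD, n = 5 each), and the organic anion carrier Slco1a4 at 10.8 ± 0.603 and 11.2 ± 0.761 FPKM (SD, n = 5 each). Mfsd2a, the carrier of lysophospholipids that also restrains vesicle traffic across brain endothelium, stood at 9.995 ± 1.40 and 9.42 ± 1.56 FPKM (SD, n = 5 each). Its lowest value was 6.72 FPKM in hypoxia + PBM replicate 5, where the other libraries of that group were at 9.66 to 10.7 FPKM. Tfrc, Slc7a5 and Slco1c1 are also made by neurons or glia, so their bulk level is not that of endothelium alone.

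None of the 7 transcription factors was called. Of these, 5 had mean levels under 1 FPKM, and Klf2 (5.03) and Sox18 (2.24) were higher. Their log2 changes ran from -0.17 to 0.17, with a median of 0.025, on a scale where the added 1 shrinks the change of low genes. With a pseudocount of 0.1 they ran from -0.35 for Fli1 to 0.36 for Sox17, with Sox7 at -0.25 and Erg at 0.23. In limma-voom the log2 change of Sox17 was 0.44. None was called under either. Fli1, an ETS factor of endothelium and blood cells, was at 0.847, 0.817, 0.971, 0.857 and 0.789 FPKM in hypoxia and at 0.623, 0.608, 0.600, 0.573 and 0.874 FPKM in hypoxia + PBM. Hypoxia + PBM replicates 1 to 4 lay below each hypoxia library and replicate 5 among them. The log2 change was -0.17 ± 0.054 (SE), with an adjusted p by limma of 0.114. Without hypoxia + PBM replicate 5, the library that lay apart, it was -0.21 and passed (adjusted p by limma 0.0318). That was the only 1 of the 10 fits without 1 library to call Fli1, and the highest adjusted p by limma was 0.208. With the pseudocount of 0.1 the adjusted p by limma was 0.123. Erg, the related ETS factor, had the opposite sign, with a log2 change of 0.12 ± 0.074 (SE), with an adjusted p by limma of 0.385.

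Sox17, which with Sox7 and Sox18 forms the SOX group of vessel formation, was at 0.268, 0.439, 0.300, 0.327 and 0.465 FPKM in hypoxia. In hypoxia + PBM it was at 0.484, 0.374, 0.554, 0.553 and 0.458 FPKM. The groups overlapped, and the log2 change was 0.13 ± 0.053 (SE), with an adjusted p by limma of 0.205. Sox18 and Sox7 had log2 changes of -0.100 ± 0.078 and -0.073 ± 0.045 (SE), so the 3 SOX genes did not share a sign. Klf2, a factor raised by blood flow, had the highest level of the group, with 4.53, 5.34, 4.31, 3.80 and 5.44 FPKM in hypoxia and 5.15, 5.31, 5.50, 5.70 and 5.18 FPKM in hypoxia + PBM. Hypoxia + PBM lay in a narrow range that the higher hypoxia libraries reached, with a log2 change of 0.17 ± 0.074 (SE) and an adjusted p by limma of 0.222. Lef1, the nuclear partner of beta-catenin, was at 0.685 ± 0.0689 and 0.716 ± 0.119 FPKM (SD, n = 5 each).

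**Figure D3:**
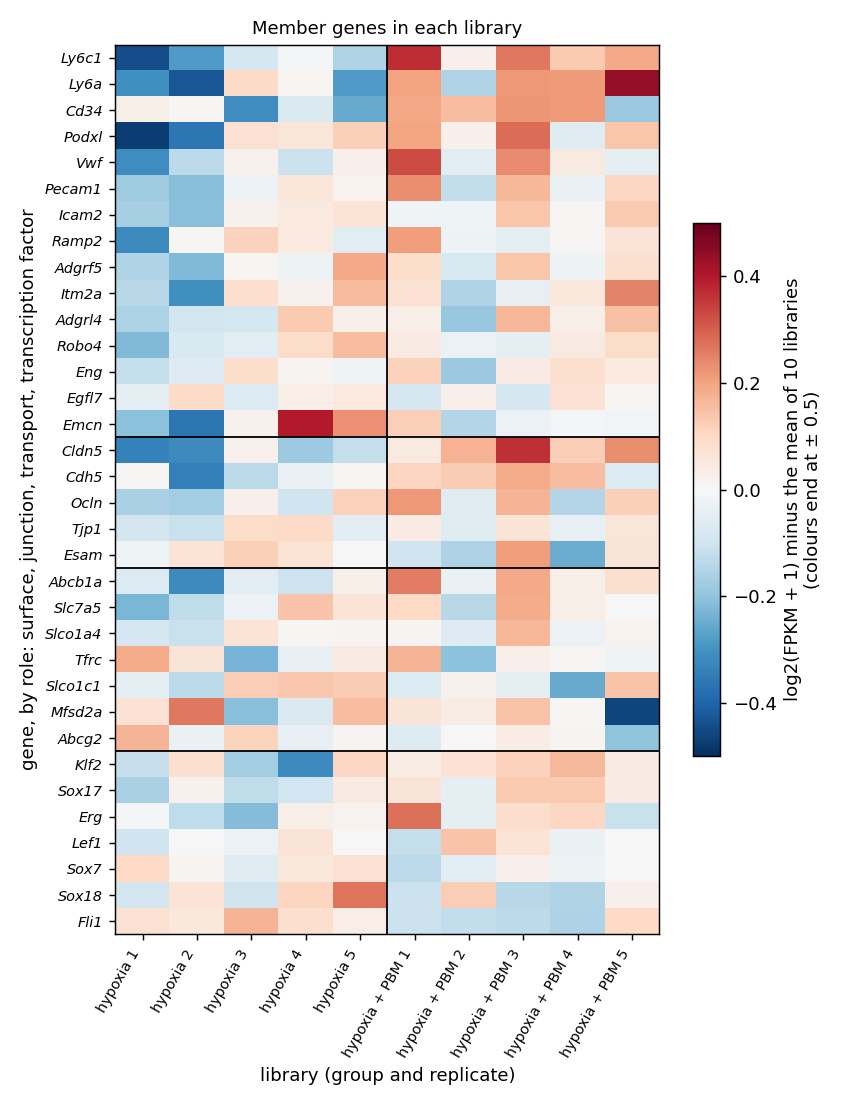
Each cell is log2(FPKM + 1) of a member in a library less its mean over the 10 libraries, with genes grouped by role and the groups divided by the vertical line. Hypoxia replicates 1 and 2 are mostly below the mean in surface and junction genes, and hypoxia + PBM replicate 3 is mostly above it.

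The members did not move as one between libraries, and libraries of the same group differed. In hypoxia replicate 1, 7 of the 34 genes were above their mean over all libraries, and in replicate 2, 12 were. In hypoxia replicates 3, 4 and 5 the numbers were 17, 21 and 26. In hypoxia + PBM replicates 1 to 5 they were 25, 11, 26, 21 and 25, so that replicate 2 was near the lower hypoxia libraries by this count alone. The members' median difference from the mean, in log2(FPKM + 1), was lowest in hypoxia replicates 1 (-0.12) and 2 (-0.11) and highest in hypoxia + PBM replicate 3 (0.13). In hypoxia + PBM replicate 2 it was -0.045. Of the members, 8 had their lowest value in hypoxia replicate 1 and 11 in replicate 2, while 10 had their highest in hypoxia + PBM replicate 3 and 8 in replicate 1. Set against the median of the other 33 members in the same library, the Cldn5 difference was -0.22, -0.21, 0.049, -0.21 and -0.15 in hypoxia and -0.032, 0.22, 0.24, 0.11 and 0.18 in hypoxia + PBM. The groups overlapped on this measure through hypoxia replicate 3 and hypoxia + PBM replicate 1. The same difference for Ly6c1 was -0.33, -0.17, -0.098, -0.037 and -0.18 in hypoxia and 0.31, 0.070, 0.13, 0.12 and 0.14 in hypoxia + PBM, without overlap. Without hypoxia replicate 1 the members' median log2 change was 0.039, and without replicate 2 it was 0.040, against 0.073 in all libraries; without hypoxia + PBM replicate 2 it was 0.11.

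In level, the members spanned from 0.272 FPKM for Sox7 to 37.3 FPKM for Cd34 as a mean over all libraries. After Cd34 came Tfrc (25.8), Itm2a (25.1) and Slc7a5 (19.3), and Tfrc and Itm2a were closer to each other than their spread. Ly6a (14.9), Slco1c1 (14.9), Ly6c1 (13.9), Cldn5 (13.1), Egfl7 (12.7) and Ramp2 (12.4) formed the next run, in which neighbours lay within their spread. Slco1a4, Mfsd2a and Tjp1 followed at 11.01, 9.71 and 9.35 FPKM. Within the groups the order differed: Cldn5 and Ly6c1 were below Egfl7 and Ramp2 in hypoxia and above them in hypoxia + PBM, and Ly6a was below Slco1c1 in hypoxia and above it in hypoxia + PBM. The lowest members were Lef1 (0.700), Icam2 (0.507), Sox17 (0.422) and Sox7 (0.272), of which Icam2 rested on 16 to 37 reads per library and Sox7 on 19 to 35.

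**Figure D4:**
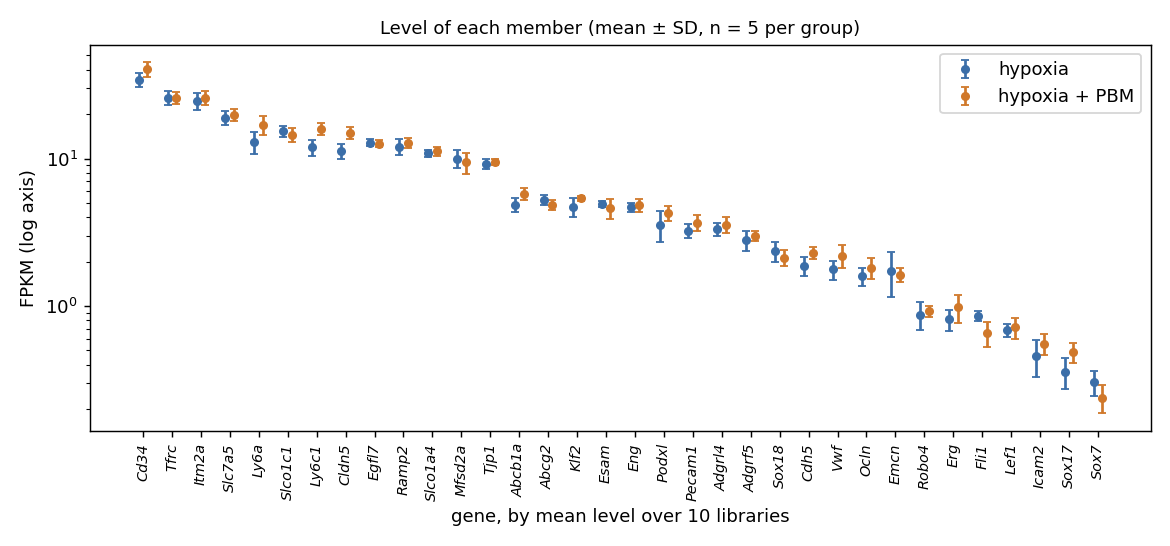
Mean FPKM ± SD (n = 5 per group, log axis) of each member, ordered by its mean over the 10 libraries. Levels run from Cd34 (37.3) to Sox7 (0.272), and for most genes the bars of the groups overlap.

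Genes of the vessel wall were also read in lists of 5 to 25 tested genes. Some members are counted again there: Vwf in the venous list, and Sox17 and Lef1 in the barrier Wnt list. The calls in these lists, and in those of other cell types below, stand beside 1.15% of all tested genes called higher and 1.7% called lower. Of 25 further endothelial identity genes 17 had a positive log2 change, with a median of 0.044, and 2 were higher and none lower. Sh2d3c, a signalling adaptor, went from 2.64 ± 0.243 to 3.71 ± 0.364 FPKM (SD, n = 5 each), by 0.37 ± 0.065 in log2 (SE), with an adjusted p by limma of 0.0135. Tek, the angiopoietin receptor TIE2, went from 1.3003 ± 0.197 to 1.78 ± 0.159 FPKM (SD, n = 5 each), by 0.28 ± 0.066 in log2 (SE), with an adjusted p by limma of 0.0403. Sh2d3c kept its call in 10 and Tek in 3 of the 10 fits without 1 library (highest limma adjusted p for Tek 0.0904, without hypoxia + PBM replicate 3). Of 8 tested arterial genes 6 had a positive and 2 a negative log2 change, with a median of 0.061, and 1 was called. Hey1 was on the negative side (log2 change -0.14, adjusted p by limma 0.0700). The called gene, Gkn3, is an arterial endothelial marker of mouse brain. It went from 0.941 ± 0.224 to 1.90 ± 0.373 FPKM (SD, n = 5 each), by 0.58 ± 0.097 in log2 (SE), with an adjusted p by limma of 0.0109. All 10 fits without 1 library kept that call. Of 5 venous genes none was called, and the smallest p was that of Vwf.

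Of 7 vesicle traffic genes 2 were higher, with a list median of 0.039. The list holds 4 genes of caveolae, the membrane pits from which vesicles form, and of these Cavin1 and Cav1 were called, while Cav2 (log2 change 0.036) and Cavin2 (-0.014) were not. Cavin1 went from 4.52 ± 0.356 to 5.60 ± 0.262 FPKM (SD, n = 5 each), by 0.26 ± 0.053 in log2 (SE), with an adjusted p by limma of 0.0220. Cav1 went from 2.82 ± 0.292 to 3.64 ± 0.227 FPKM (SD, n = 5 each), by 0.28 ± 0.060 in log2 (SE), with an adjusted p by limma of 0.0249. The groups did not overlap in either gene, as in 2.67% of all tested genes in the higher direction. Cavin1 kept its call in 7 and Cav1 in 6 of the 10 fits without 1 library. Leaving out hypoxia + PBM replicate 3 gave the largest adjusted p by limma, 0.0566 for Cavin1 and 0.0610 for Cav1. Plvap, a protein of openings in leaky endothelium, was at 3.13 ± 0.226 and 3.33 ± 0.420 FPKM (SD, n = 5 each) and did not pass the test. Cav1 and Cavin1 are also made by smooth muscle and fibroblasts.

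None of 13 further junction genes was called, with a median log2 change of -0.016. The smallest p there was that of Jam3, a junctional adhesion molecule, with a log2 change of -0.23 ± 0.061 (SE), with an adjusted p by limma of 0.0608. None of 20 further barrier transport genes was called either (median 0.013), with the smallest p for the glutamine carrier Slc38a3 at 0.24 ± 0.072 (log2 change, SE; adjusted p by limma 0.0894). Of 19 genes of barrier Wnt signalling, 14 had a positive log2 change, with a median of 0.045, and none was called. Notum, an enzyme that inactivates Wnt proteins, had the smallest p (0.12 ± 0.040 in log2, SE), with an adjusted p by limma of 0.125. Of 6 tested leukocyte adhesion and activation genes none was called, and their median was -0.0044. Cxcl10, an interferon-induced chemokine, had the smallest p there, with a log2 change of -0.15 ± 0.056 (SE), with an adjusted p by limma of 0.168.

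**Figure D5:**
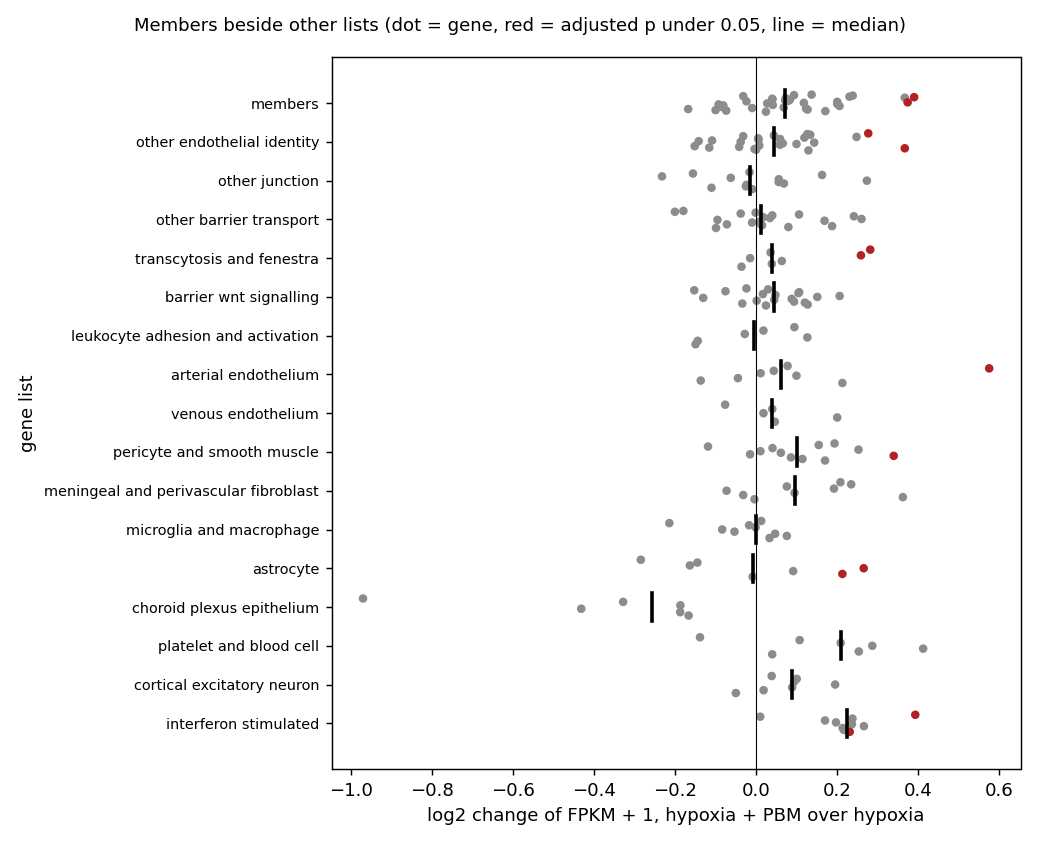
Log2 change of FPKM + 1 of single genes (dots) by list, with called genes in red and the median of each list as a line. The members' median is 0.073, the interferon list lies wholly above 0, and the striatal list (median -0.95) is left out of the plot.

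Genes of other cell types and of the interferon response were read in the same libraries. Their part in the results for Cldn5 and Ly6c1 was not tested. The covariate fit given above held only the striatal markers, whose mean separated the groups without overlap, so it cannot part marker level from group. Ly6 genes such as Ly6a are also known to respond to interferon in mice. Of 10 interferon-stimulated genes 10 had a positive log2 change (median 0.22) and 2 were higher, Irf7 (0.39) and Xaf1 (0.23). These calls held in 3 and 8 of the 10 fits without 1 library, with the largest adjusted p by limma (0.0905 and 0.0524) without hypoxia + PBM replicate 1. The summed level of the 10 genes was 58.9 to 72.0 FPKM in hypoxia and 69.9 to 91.5 FPKM in hypoxia + PBM. Cxcl10, the interferon-induced chemokine read with the leukocyte list, went the other way, with a log2 change of -0.15, and was not called. Of 12 tested pericyte and smooth muscle genes 10 had a positive log2 change (median 0.10) and 1 was higher, Cspg4 (0.34), which oligodendrocyte precursors also make. Its call was kept in 9 of the 10 fits without 1 library. Without hypoxia + PBM replicate 1 the adjusted p by limma of Cspg4 was 0.0576. The pericyte and smooth muscle sum was 33.6 to 46.5 and 42.9 to 51.1 FPKM. Of 9 fibroblast genes none was called (median 0.095; sums of 24.1 to 32.4 and 25.2 to 34.4 FPKM). Of 7 tested blood and platelet genes none was called (median 0.21; sums of 5.49 to 20.2 and 5.83 to 30.8 FPKM), and Gp9 and Ppbp were at 0 in some libraries.

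The 15 striatal neuron markers were all lower, Ppp1r1b with the smallest p (log2 change -0.95), with a median log2 change of -0.95 and sums of 420 to 761 FPKM in hypoxia and 213 to 383 FPKM in hypoxia + PBM. With their mean as a covariate the Cldn5 log2 change was 0.35 (adjusted p by limma 0.762) and that of Ly6c1 0.25 (adjusted p by limma 0.868). As that mean separated the groups without overlap, the fit cannot tell the markers' part from that of the group. The 6 choroid plexus genes, whose epithelium shares some transporters with the barrier, had no called gene, and 6 of 6 had a negative log2 change (median -0.26). Their summed level ran from 87.8 to 637 FPKM in hypoxia and from 8.78 FPKM in hypoxia + PBM replicate 4 to 471 FPKM. Of 7 astrocyte genes 2 were higher, the glutamate transporter Slc1a2 (0.21) and the enzyme Aldh1l1 (0.27), while 4 had a negative log2 change and the median was -0.0080. Among the uncalled astrocyte genes, the water channel gene Aqp4 had a log2 change of -0.28 and the gap junction gene Gja1 one of -0.14. The astrocyte list had sums of 417 to 464 and 427 to 491 FPKM. The Slc1a2 call was kept in 6 of the 10 fits without 1 library (adjusted p by limma 0.0605 without hypoxia replicate 1). The Aldh1l1 call was kept in all 10, with a highest adjusted p by limma of 0.0178 (without hypoxia + PBM replicate 2). Of 9 microglia and macrophage genes none was called (median -0.00076; sums of 154 to 183 and 147 to 176 FPKM). None of 7 cortical excitatory neuron genes was called (median 0.089; sums of 574 to 632 and 586 to 620 FPKM). The smallest p values of the lists without a called gene were those of Slc6a13 for fibroblasts (log2 change 0.36, adjusted p by limma 0.0729), Itga2b for blood and platelets (log2 change 0.11, adjusted p by limma 0.366), Clic6 for choroid plexus (log2 change -0.43, adjusted p by limma 0.513), Tmem119 for microglia (log2 change -0.21, adjusted p by limma 0.107) and Rorb for cortical excitatory neurons (log2 change 0.20, adjusted p by limma 0.0916).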

How the data were processed

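TRIzol RNA, 1.4 ug per library, was prepared with the VAHTS Universal V10 kit, per the labels' protocols. The submitters' processing notes name fastp 1.0, HISAT2, HTSeq and the build GRCm39. Settings, annotation and strandedness, not given in the sources used here, could change the values.

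The FPKM values of each gene and library were computed by the authors, per the file headers. The deposited group means are a signal: reads over size factors. The authors' own comparison gives a deposited fold change (a linear ratio), its log2 value, a p-value and a q-value. It is quoted only as "the authors' deposited table".

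Groups and replicate numbers came from the sample titles. Genes with at least 0.1 FPKM in at least 5 libraries were tested by limma-trend (limma 3.58.1, R 4.3.3) on log2(FPKM + 1), two-sided, with the group as the only term. This scale understates changes of genes with low FPKM. Read numbers were worked out from FPKM and the group means, and 100% of values were whole within 0.01 reads. They served for depth and for one alternative. Counting error is small except for members with few reads. Libraries of a group differed by more than counting noise (chi-square per gene 6.00 to 13.9). The script was tested on simulated data of 14358 genes with equal, independent spread, where 56% of the 1.3-fold and 100% of the 2-fold changes were recovered. Of 167 calls there, 11 were false. The changed genes were drawn only from genes with many reads, so the recovered shares do not cover members with few reads. The alternatives were other pseudocounts, filters and scalings, limma-voom, a replicate block, a striatal covariate and leaving out each library. Members and lists were chosen with earlier results of these data known. Values in every library are given for called members and, within each role, for the 2 smallest p and the highest level. For other lists the called genes and the smallest p are named. The further genes Slc17a7, Plvap, Cav2, Cavin2, Aqp4, Gja1 and Ly6c2 were named after their values were seen.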

Additional observations from a re-analysis of the deposited data

Results flagged for a closer look

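In 4 of the 90 sets of 5 libraries that were looked at, gene by gene and group by group, 1 library lay far from the others by Dixon's ratio, where chance gives about 1 in 20. Hypoxia + PBM replicate 5 was the library in question for 3 of them: Cd34 at 32.4 FPKM (others 41.3 to 43.2), Mfsd2a at 6.72 FPKM (others 9.66 to 10.7) and Fli1 at 0.874 FPKM (others 0.573 to 0.623). Hypoxia + PBM replicate 2 was low in Eng, at 4.04 FPKM, with the others of its group at 4.89 to 5.21 FPKM. Without hypoxia + PBM replicate 5, Cd34 passed the limma test as higher (adjusted p = 0.0298) and Fli1 as lower (adjusted p = 0.0318). Each was called in that 1 of the 10 fits only. In the same fit Mfsd2a had a log2 change of 0.022 in place of -0.083.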

How the results depend on the processing

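Cldn5 and Ly6c1 were the members called under both pseudocounts, each filter, upper-quartile scaling and limma-voom. The replicate block left 256 genes and 1 member called (Cldn5). The numbers were not treated as pairs in the main test because the labels do not say that they mark pairs. Same-numbered libraries correlated in their deviations at -0.0721 to 0.205, over 0.1 in replicate 2 alone. With the striatal covariate 0 genes and 0 members were called, against 889 genes at an unadjusted p under 0.05. Cldn5 had an unadjusted limma p of 0.0272 there. The covariate separated the groups without overlap, so the fit could hardly tell it from the group. In the same fit the log2 change turned sign for Cd34 (-0.020), Adgrl4 (-0.070), Egfl7 (0.0022), Tjp1 (-0.036), Slco1a4 (-0.029), Slc7a5 (-0.11) and Lef1 (-0.067), and under upper-quartile scaling for Tfrc (0.0038); none of these 8 was called. Leaving out 1 library gave 200 to 538 called genes, 1 to 3 members higher and 0 to 1 lower. Over these fits Emcn ran from -0.13 to 0.064, Robo4 from -0.0095 to 0.085, Mfsd2a from -0.15 to 0.022, Tfrc from -0.069 to 0.041 and Lef1 from -0.0078 to 0.058. Higher genes were 40.4% of calls, and 49.5% under upper-quartile scaling. The filter of 1 FPKM left 27 members to test, so the 7 lowest have no value under it.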
